A study of Mus musculus with 6 samples.

Results

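Of the Gli3 binding sites mapped by chromatin immunoprecipitation and sequencing (ChIP-seq) in the embryonic mouse cortex, 258 lay outside the coding genes but near one of them. These sites are described here and are called intergenic, a name that refers to coding genes only. A site belonged to the set when its midpoint was more than 2 kb from the transcription start site (TSS) of every annotated transcript, outside the body of every protein-coding gene, and at most 20 kb from the nearest TSS of a protein-coding transcript. The set made up 6.41% of the 4028 sites on chromosomes 1 to 19 and came from a list of 4114 sites in all. The list was made from 3 ChIP libraries with a Gli3 antibody and 3 input DNA libraries, all of wild-type mouse cerebral cortex dissected at embryonic day 15. Dissected cortex holds progenitors, neurons and other cells together, so that a site is not assigned to a cell type. The list also does not separate sites of the activator and repressor forms of Gli3, and the Gli3 antibody that the study names was used on its western blots to measure both. The replicates were joined into 1 list of positions without heights or read counts, so that no value could be given per library, the depth behind a site is unknown, and the intervals below cover counting error over sites only. They are 95% intervals, by the Wilson method for shares and conditional exact ones for odds ratios. For a count of 0 the upper limit given is 3 counts of the total, in place of the Wilson limit.

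Gli3 is a zinc-finger transcription factor of the Sonic hedgehog (Shh) pathway. In the absence of Shh it is cut into a shorter form that represses target genes, and in its presence the full-length protein can act as an activator. In the dorsal telencephalon the repressor form holds back ventral fates, and much of the control of developmental genes is known to run through enhancers, which are stretches of DNA outside promoters that bind several factors at once.

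Gli proteins recognise a sequence whose most constant part is GACCACCCA, called the GLI core here, and it was searched on both strands. The sequences below show the sites with a core at most 64 bp from the middle and the site with a pair of cores close together. They also show the cores of sites nearest to a gene of the pathway and cortex lists used further below. They are from mm10 (GRCm38), are read 5′ to 3′ on the strand of the core, and have the core in capitals. Those of *Cdh22* and *Smo* are the middle 300 bases of the site, and the others are named by the nearest coding gene and reach 16 bases beyond the core.
Cdh22 (chr2:165248969-165249268, minus strand): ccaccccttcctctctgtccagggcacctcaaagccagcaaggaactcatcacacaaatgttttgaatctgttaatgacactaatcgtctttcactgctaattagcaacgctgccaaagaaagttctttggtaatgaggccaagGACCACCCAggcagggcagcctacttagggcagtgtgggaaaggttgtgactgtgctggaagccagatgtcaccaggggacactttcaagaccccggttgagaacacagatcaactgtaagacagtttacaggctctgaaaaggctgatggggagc
Smo (chr6:29718817-29719116, minus strand): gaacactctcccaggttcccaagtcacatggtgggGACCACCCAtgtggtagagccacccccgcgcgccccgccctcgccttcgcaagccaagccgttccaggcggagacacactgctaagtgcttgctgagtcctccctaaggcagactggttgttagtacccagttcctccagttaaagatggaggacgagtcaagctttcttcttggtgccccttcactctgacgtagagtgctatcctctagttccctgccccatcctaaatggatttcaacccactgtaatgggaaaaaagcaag
Kctd18 (chr1:57951511-57951570, plus strand): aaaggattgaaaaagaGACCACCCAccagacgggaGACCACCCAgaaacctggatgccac
Eif2b2 (chr12:85200767-85200807, minus strand): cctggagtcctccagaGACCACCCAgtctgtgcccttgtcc
Rbp7 (chr4:149446003-149446043, minus strand): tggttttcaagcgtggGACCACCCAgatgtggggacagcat
Tln2 (chr9:67573858-67573898, plus strand): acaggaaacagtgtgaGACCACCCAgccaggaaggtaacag
Rmnd5b (chr11:51638126-51638166, minus strand): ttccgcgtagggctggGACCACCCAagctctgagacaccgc
Neurod2 (chr11:98333044-98333084, minus strand): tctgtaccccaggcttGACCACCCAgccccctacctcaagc
Neurod2 (chr11:98336179-98336219, plus strand): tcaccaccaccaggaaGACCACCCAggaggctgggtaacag
Foxb2 (chr19:16876542-16876582, minus strand): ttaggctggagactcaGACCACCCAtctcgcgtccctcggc

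An exact core was present in 41 of the 258 sites (15.9%, 11.9 to 20.8%). Regions of the same length placed 1 site length away on either side, called flanks, held a core in 11 of 515 cases (2.14%, 1.20 to 3.78%), and the ratio of the shares was 7.44. The flanks had a lower GC content, with a median of 47.0% against 50.1% in the sites. The 41 sites held 45 cores, 20 on the plus and 25 on the minus strand. This came to 7.96 cores per 100 kb of site sequence and 0.974 per 100 kb of flank sequence.

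With each site divided by length into 3 equal parts, the middle one held 19 of the 45 cores (42.2%). Of the 45 cores, 6 were centred within 100 bp of the midpoint, 17 within 250 bp and 28 within 500 bp, with a median distance of 326 bp. The central 500 bp held a core in 16 sites (6.20%, 3.85 to 9.84%) and in 1 flank (0.194%). In the central 200 bp the numbers were 5 sites (1.94%, 0.831 to 4.46%) and 0 of 515 flanks, which allows a share of up to 0.583% (3 counts of the total). Expressed per length, the central 200 bp held 9.69 cores per 100 kb and the whole sites 7.96.

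**Figure D1:**
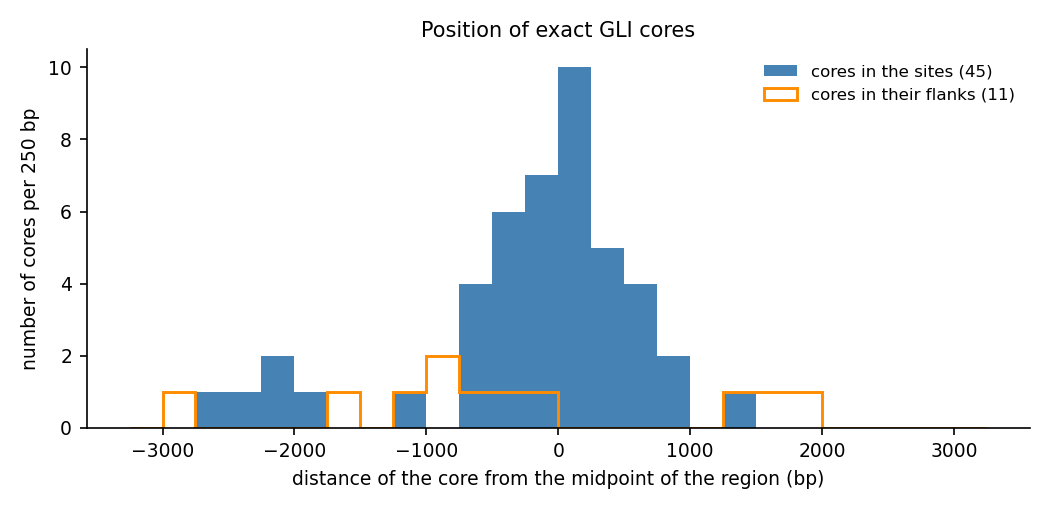
Distance of each exact GLI core from the midpoint of its region in bp (horizontal) against the number of cores per 250 bp (vertical), for the 258 sites (filled) and their 515 flanks (outline). Of the 45 cores in sites 28 lay within 500 bp of the midpoint, while no bin held more than 2 of the 11 cores in flanks, which have about 2 times as much sequence.

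The closest fit was at *Cdh22* (ENSMUSG00000053166.14), which encodes a cadherin, a cell adhesion protein. Its site spanned chr2:165248326-165249912, was 1587 bp wide and lay 14.3 kb upstream of the TSS, and the centre of its core was 1 bp from the midpoint. At *Eif2b2*, a subunit of a translation initiation factor, the core was 10 bp from the midpoint of a narrow site of 766 bp, 18.7 kb upstream. At *Rbp7*, a retinoid-binding protein, it was 29 bp away and at *Tln2*, a talin that links integrins to actin, 44 bp away. The other members of the 10 sites with the most central cores were those of *Rmnd5b* (64 bp), *Camk1g* (99 bp), *Smo* (110 bp), *Gpr55* (118 bp), *Enpp7* (125 bp) and *C8a* (126 bp). Of the genes named for these 10 sites, *Smo* was the one on the Hedgehog list.

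Smoothened, the product of *Smo* (ENSMUSG00000001761.7), is the membrane protein that passes the Shh signal into the cell. Its site spanned chr6:29717913-29720021, was 2109 bp wide and had its midpoint 16.7 kb upstream of the *Smo* TSS, in the interval between *Tspan33* and *Smo*. No noncoding gene was annotated at its midpoint, and the next site of the list was 329 kb away. No site midpoint was within 2 kb of a *Smo* TSS.

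A pair of exact cores was found in 4 sites, and none held more. At *Kctd18*, both cores lay on the plus strand with their starts 19 bp apart, 137 and 156 bp from the midpoint, as printed above. The site spanned chr1:57950263-57952525 and lay 18.7 kb downstream of the TSS. The cores of the 4933407L21Rik site were 243 bp apart, those of *Nrsn2* 1224 bp and those of *Neurod2* 3135 bp, in each case on opposite strands. The 4933407L21Rik site was the widest of the set at 7326 bp, and its nearer core was 2476 bp from the midpoint.

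The bases beside the core were also counted. The base after the core was G in 25 of 45 cases, and the base before it was A in 21 and G in 16 cases. The rule for choosing the sites used no sequence, and these counts are given without a test.

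With 1 mismatch allowed, a match was present in 175 sites (67.8%, 61.9 to 73.2%) and in 40% of flanks (35.9 to 44.3%). The 8-base form GACCACCC was present in 59 sites (22.9%) and 5.44% of flanks. Positions are counted from 1 at the 5′ end of the core. Among the changed forms, A2G, the word GGCCACCCA, was found in the most sites, 33 (12.8%) against 20 flanks (3.88%), and in 14 sites it was in the central 200 bp. The form C7A was in 20 sites (7.75%) and 12 flanks (2.33%), A5T in 18 sites and 13 flanks, and A2C in 28 sites and 21 flanks. The form A9G was in 4 sites and 0 of 515 flanks, which allows up to 0.583%. The opposite held for C7T, which was in 7 flanks (1.36%) and in 0 of 258 sites, which allows up to 1.16%, and for C7G, in 3 flanks and 0 sites. These forms were picked out of 27 after their counts were seen.

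Within the set, core-bearing sites made up 14.9% at 2 to 5 kb from the TSS (7 of 47 sites), 16.9% at 5 to 10 kb (13 of 77) and 15.7% at 10 to 20 kb (21 of 134), with intervals that overlapped. Their share was 17.0% upstream and 13.2% downstream of the TSS. In 4 groups of rising width it was 12.3%, 15.6%, 21.9% and 13.8%, although wider sites contain more sequence. The median width was 2087 bp with a core and 1929 bp without, and the median GC content was 48.9% and 50.2%.

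The core share was then compared with that of other classes of sites on the same chromosomes by two-sided Fisher's exact tests, adjusted by the Benjamini-Hochberg method over all 68 tests between classes. Sites outside coding genes at 20 to 100 kb had a core in 14.1% of cases (69 of 488), an odds ratio of 1.15 for the nearer sites (0.733 to 1.78, exact test, adjusted p = 0.901). Sites inside coding genes within 20 kb of a coding TSS had one in 16.2% (65 of 402), an odds ratio of 0.980 (0.622 to 1.53, exact test, adjusted p = 1). Against all 3770 other sites, 12.0% of which held a core, the odds ratio was 1.39 (0.954 to 1.98, exact test, p = 0.0764, adjusted p = 0.433). None of the 3 differences passed the threshold, and the intervals allow odds ratios from 0.622 to 1.98. Promoter sites, with their midpoint within 2 kb of a TSS, held a core in 9.03% of 1838 cases.

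**Figure D2:**
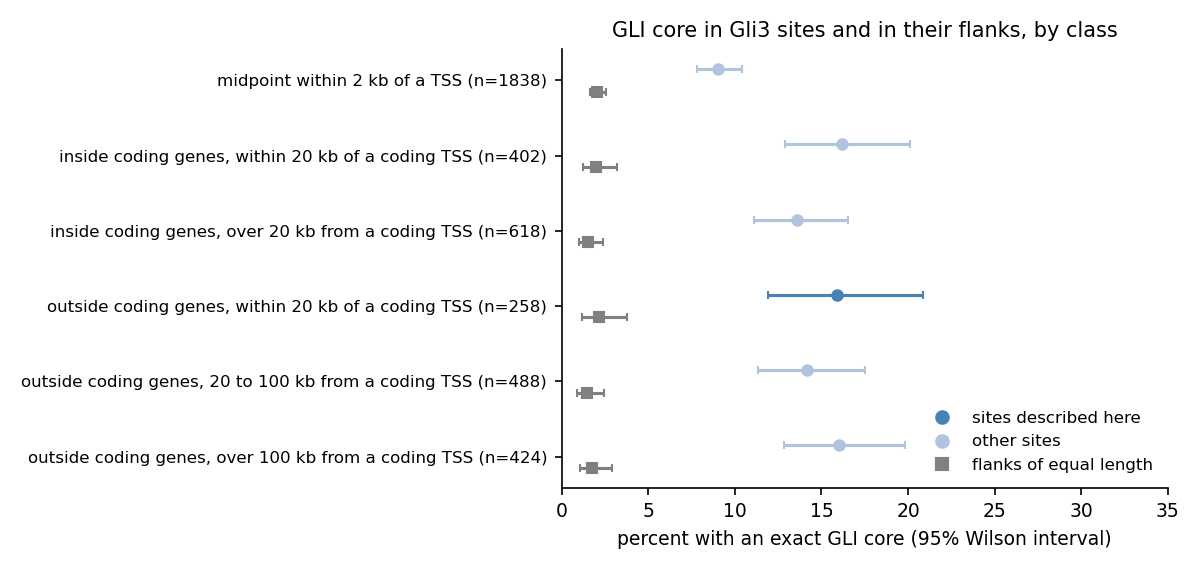
Percent of regions with an exact GLI core (horizontal, with 95% Wilson intervals) for each class of Gli3 sites and for flanks of equal length (squares). The 258 intergenic sites within 20 kb stand at 15.9% against 2.14% in their flanks, and their interval overlaps those of the other classes apart from the promoter sites at 9.03%.

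The sites were close in size to the rest of the list. Their median width was 1961.5 bp (25th to 75th percentile 1255.5 to 2744.5 bp), and 48.8% were wider than the median of all sites against 50.1% of the others. Among the widest were those nearest to 4933407L21Rik and to *Slc25a48* (6351 bp), a mitochondrial carrier. The *Slc25a48* site held no exact core. The narrowest were those of *Gm10354* (225 bp), *Paqr3* (241 bp) and *Tmem18* (297 bp), also without a core. Over their whole length 222 of the 258 sites stayed outside coding genes and more than 2 kb from every TSS.

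The GC content of the sites ran from 34.3% to 63.0%. It was higher than in both flanks for 144 of the 257 sites with a pair of flanks (56.0%) and lower than in both for 22 (8.56%), with a median difference of 2.56 percentage points from the mean of the flanks. Compared with the rest of the list the sites were poorer in GC. Of the 258 sites 39.1% lay above the median GC content of all sites, against 50.7% of the others (odds ratio 0.624, 0.477 to 0.814, two-sided Fisher's exact test, adjusted p = 0.0130), a call that was lost with the outer limit at 10 kb (exact test, adjusted p = 0.179). Among the others, the promoter sites were above that median in 74.4% of cases. Sites inside coding genes within 20 kb were above it in 44.0% (odds ratio 0.818, exact test, adjusted p = 0.658). For sites outside coding genes at 20 to 100 kb the share was 35.2% (odds ratio 1.18, exact test, adjusted p = 0.703). Against these classes the difference did not pass the threshold. A CpG-island-like composition, with a GC content above 50% and an observed to expected CpG ratio above 0.6, was met by 7 of the 258 sites (2.71%) and by 43.3% of promoter sites. The other classes were also low, with 2.24% inside coding genes within 20 kb and 3.07% outside them at 20 to 100 kb. Inside coding genes over 20 kb from a coding TSS it was 0.485%, and outside them beyond 100 kb 0.236%. The 7 sites were those of *Tex44*, *Rabif*, *Spag6*, *Neurog2*, *Myl3*, *Bcl11b* and *Gpr84*. None of them held an exact core, where the share of all 258 sites was 15.9%.

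Some sites lay in sequence that occurs more than once in the genome, where reads may be hard to place. In 9 of the 258 sites (3.49%) more than 50% of the 32-base words occurred more than once in the assembly, copies within the site included. This held for 3.23% of all sites on chromosomes 1 to 19. The read ends were longer than these words, 85 bases, and the placing of reads was not tested. The 9 sites were those nearest to *Gm10354*, *Gm10721*, *Tmem18*, *Gm11168*, *Dusp5*, *Tmem125*, *Stx18*, *Ceacam1* and *Teddm3*. The limit of 50% was set after the data had been seen. The *Gm11168* and *Gm10721* sites lie side by side at chr9:3007393-3008074 and chr9:3009287-3010120 inside the long noncoding RNA gene *Gm26870*, and 96.0% and 99.0% of their bases are masked as repeats. One of the 9, that of *Teddm3*, held an exact core, and without them the core share was 16.1%.

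Short words recognised by other families of transcription factors were counted on both strands in the same way, none of which contains another. The bHLH word CAGCTG, bound by proneural factors among others, was in 185 sites (71.7%, 65.9 to 76.9%) and in 61.0% of flanks (56.7 to 65.1%), and its density was 7.31 per 10 kb in sites and 6.06 in flanks. The SP word GGGCGGGG was in 61 sites (23.6%, 18.9 to 29.2%) and 15.7% of flanks. The POU word ATGCAAAT was in 39 sites (15.1%) and 11.5% of flanks. For the homeodomain word TAATTA the shares of sites and flanks were 35.3% and 34.0%, for the SOX word ACAAAG 74.8% and 78.1%, for the NFY word CCAATC 48.8% and 46.0%, for the KLF word GGGCGTGG 10.9% and 11.7%, and for the CREB word TGACGTCA 2.71% and 1.94%. The spaced NFI motif was in 0 of 258 sites, which allows a share of up to 1.16%, and in 3 flanks.

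Of the comparisons of these words between classes, 2 passed the threshold, both of the SP word. It was less frequent than in all other sites of the list, 23.6% against 34.5% (odds ratio 0.588, 0.431 to 0.795, two-sided Fisher's exact test, adjusted p = 0.0130), and with the outer limit at 10 kb this was lost (exact test, adjusted p = 0.0655). These others include 1838 promoter sites, whose part in the difference was not tested. Sites outside coding genes at 20 to 100 kb held the word less often, in 20.5% of cases (odds ratio 1.20, exact test, adjusted p = 0.709). So did sites inside coding genes within 20 kb, in 16.7% (odds ratio 1.55, exact test, adjusted p = 0.329). Neither of these differences passed the threshold. The SP word was thus less frequent against the pooled others only. In the central 200 bp, where every site is searched over a like length, it was in 13 sites (5.04%, 2.97 to 8.43%) and in 4 of the 402 sites inside coding genes within 20 kb (0.995%), an odds ratio of 5.28 (1.60 to 22.4, exact test, adjusted p = 0.0329). This was lost with the outer limit at 50 kb (odds ratio 2.90, exact test, adjusted p = 0.0632) and at 10 kb, where 0 of the compared sites held the word and no odds ratio could be given (exact test, adjusted p = 0.237). In the same stretch it was in 6.31% of all other sites, and that difference did not pass the threshold (odds ratio 0.787, exact test, adjusted p = 0.901). Nor did the difference from sites outside coding genes at 20 to 100 kb, 1.84% of which held it there (odds ratio 2.82, exact test, adjusted p = 0.239). The 13 sites, named after the count was made, were those of *Lgi1*, *Nrarp*, *Hes1*, *Asic1*, *Enpp7*, *Trmt61a*, *Tex44*, *Smug1*, *Rhbg*, *Smo*, *Calcoco1*, *Pebp4* and *Emx1*. Those of *Enpp7*, *Smug1* and *Smo* also held an exact GLI core.

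**Figure D3:**
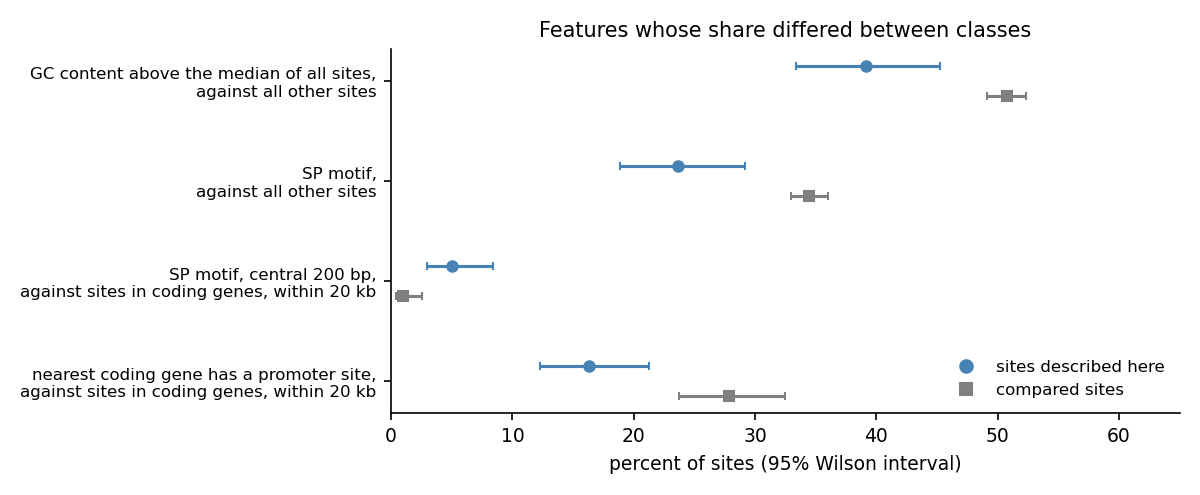
Percent of sites with each feature (horizontal, with 95% Wilson intervals) for the 258 intergenic sites (circles) and the sites compared (squares), for the 4 of 68 tests with an adjusted p-value below 0.05. The intergenic sites were lower in 3 of the 4, and higher for the SP word in the central 200 bp, 5.04% against 0.995%.

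The sequence that meets the rule amounted to 221 Mb, so that the sites had a density of 1.17 per Mb. Over all of chromosomes 1 to 19 the density was 1.68 per Mb, within 2 kb of a TSS it was 6.70 per Mb, and outside coding genes it was 1.33 per Mb at 20 to 100 kb and 0.599 per Mb beyond 100 kb. Distance is part of the rule, and these densities are a description. Inside the 20 kb the density was 1.04 per Mb at 2 to 5 kb (47 sites), 1.12 per Mb at 5 to 10 kb (77 sites) and 1.25 per Mb at 10 to 20 kb (134 sites).

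Upstream of the nearest coding TSS there were 182 sites (70.5%, 64.7 to 75.8%), and 76 downstream of it, which by the rule is past the end of that gene. The upstream side also held 75.6% of the sequence, and the density was 1.09 per Mb upstream and 1.41 per Mb downstream. With regard to the coding genes on either side, 89 sites lay between divergent genes, which point away from each other, 124 between genes in tandem and 45 between convergent genes. The densities were 1.25, 0.995 and 1.78 per Mb. Chromosome 1 held the most sites, 32, followed by chromosome 2 with 28 and chromosome 11 with 27. These counts were not set against the length of the chromosomes.

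**Figure D4:**
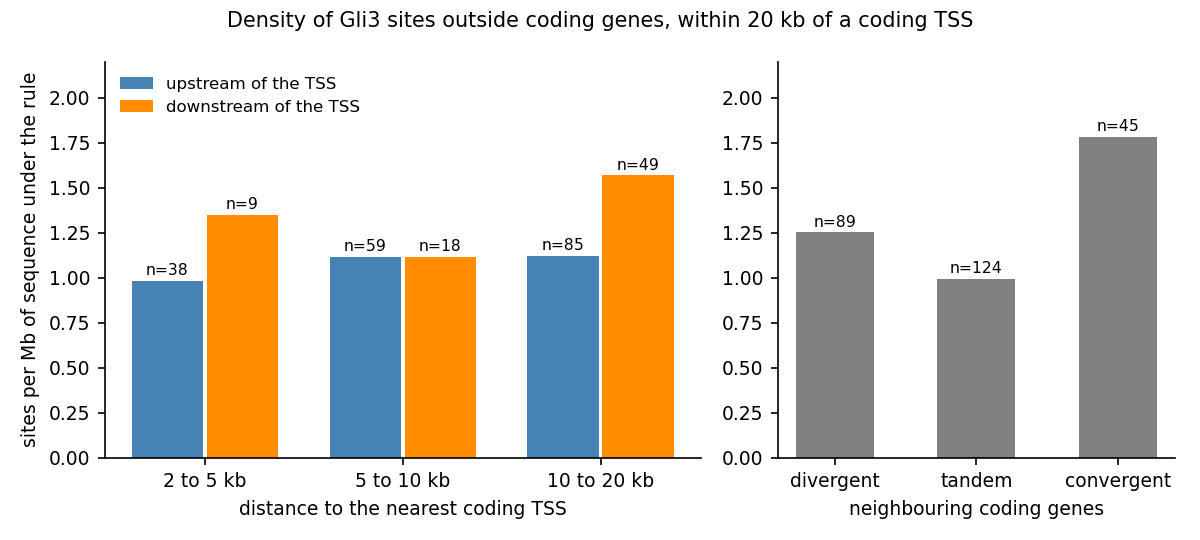
Sites per Mb of sequence that meets the rule (vertical), by distance and side of the nearest coding TSS (left) and by orientation of the neighbouring coding genes (right), with the number of sites above each bar. Density was highest at 10 to 20 kb downstream, with 49 sites and 1.57 per Mb, and between convergent genes, with 45 sites and 1.78 per Mb.

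Most sites lay in no annotated gene at all, 235 of 258 (91.1%), and 23 (8.91%, 6.01 to 13.0%) had their midpoint in a noncoding gene. Of these, 9 were in lincRNA genes and 5 in antisense genes. Among those named below, the *Pou3f3* site was in *Pantr1*, the *Sox2* site in *Sox2ot*, the *Sox1* site in *Sox1ot* and the *Prox1* site in *Prox1os*. The next site of the list was a median of 67.6 kb away, and 77 sites (29.8%) had another site within 20 kb, against 32.6% of the sites inside coding genes within 20 kb, 23.2% of those outside coding genes at 20 to 100 kb and 19.1% of all other sites on chromosomes 1 to 19. These shares were not tested against each other.

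At the limits of the rule, the site nearest to any TSS was that of *Znrf4*, 2010 bp away, and the site just left out was that of *Fzd9*, at 1967 bp. At the outer limit, the *Myl10* site was 19945 bp from the TSS, and that of *Ccna1*, at 20008 bp, was left out.

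The 258 sites had 251 different nearest coding genes, 1.21% of the 20722 coding genes of these chromosomes. No gene was nearest to more than 2 sites, and 7 genes were nearest to 2 of them: *Hes5*, *Nrarp*, *Cryzl2*, *Ttyh3*, *Tex44*, *Znrf4* and *Cdc42ep1*. Of the 251 genes, 41 (16.3%, 12.3 to 21.4%) also had a site with its midpoint within 2 kb of one of their TSSs, against a background of 8.49% of all coding genes. Counted by sites, the nearest gene had such a promoter site for 42 of the 258 (16.3%). For sites inside coding genes within 20 kb the share was higher, 27.9% (112 of 402), and the difference passed the threshold (odds ratio 0.503, 0.330 to 0.759, two-sided Fisher's exact test, adjusted p = 0.0149). For sites outside coding genes at 20 to 100 kb it was 22.7%, and the difference did not pass (odds ratio 0.660, 0.435 to 0.991, exact test, adjusted p = 0.366). Sites near 1 gene share that gene, and with each gene counted once the shares were 24.9% of 362 genes inside and 18.9% of 407 genes at 20 to 100 kb.

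Genes of signalling pathways and of cortical development were then looked up among the nearest genes. Of 561 genes on 11 lists, 25 (4.46%) were nearest to a site, beside 1.21% of all coding genes, and they accounted for 27 sites. The genes of the lists are also surrounded by more sequence that meets the rule, with a median of 17.1 kb a gene against 10.1 kb, and per Mb of that sequence there were 3.20 sites for the lists and 1.17 for all genes. A gene can be on several lists, nearest is a matter of distance only, and no list was tested. The lists were chosen with earlier results of these data known, so that their shares and their order are a description only.

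**Figure D5:**
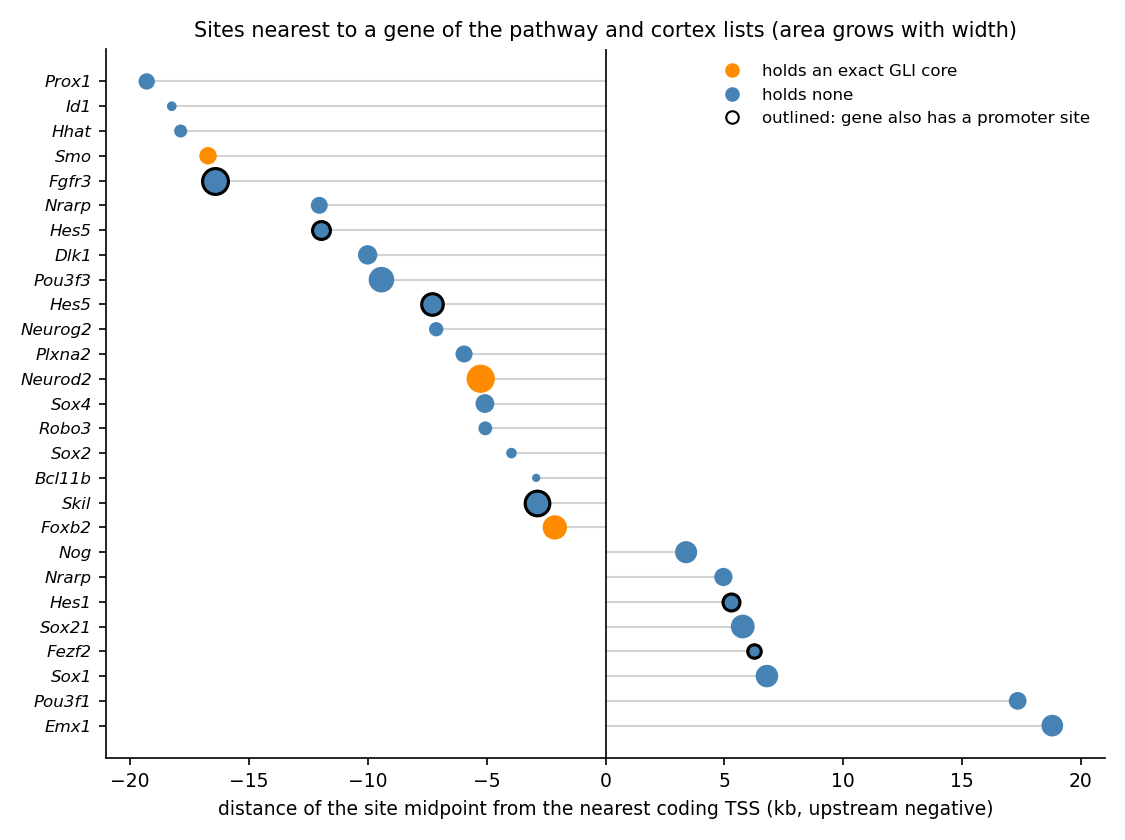
Distance in kb (horizontal, upstream negative) of each of the 27 sites from the TSS of the listed gene it is nearest to (rows), with the area of a point growing with the width of the site. The sites of *Smo*, *Neurod2* and *Foxb2* held an exact GLI core, and 19 of the 27 lay upstream.

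Of the 11 lists, that of cortical progenitor genes had the highest share. Of 35 such genes 8 (22.9%) were nearest to a site, 11.7 sites per Mb of the sequence around them. *Sox2* and *Sox1*, which encode HMG-box factors of neural stem cells, had a site of 779 bp 3.96 kb upstream and a site of 3507 bp 6.79 kb downstream. *Emx1*, a homeodomain factor of the dorsal telencephalon, had a site 18.8 kb downstream, and *Neurog2*, a proneural factor of excitatory neurons, a site 7.13 kb upstream. *Fezf2*, which specifies subcerebral projection neurons, had a site 6.24 kb downstream, and *Id1*, an inhibitor of bHLH factors, a site of 650 bp 18.3 kb upstream. The others were the Notch effectors *Hes1* and *Hes5*. None of the 9 sites of this list held an exact core, where the share of all 258 sites was 15.9%, and with so few sites this was not tested.

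The Notch pathway, which maintains progenitors, had 4 of 29 genes nearest to a site (13.8%), with 6 sites and 14.8 per Mb. *Hes5* (ENSMUSG00000048001.7) had a site of 3220 bp at chr4:154952005-154955224, 7.31 kb upstream, and another of 2212 bp at chr4:154947838-154950049, 12.0 kb upstream. Their midpoints were 4.67 kb apart, and the gene had a promoter site as well. *Nrarp*, a feedback inhibitor of Notch signalling, had a site on either side, 12.0 kb upstream at chr2:25167720-25169702 and 4.96 kb downstream at chr2:25184562-25186867. *Hes1* had a site of 1984 bp 5.28 kb downstream and a promoter site, and *Dlk1*, an atypical Notch ligand, a site 10.0 kb upstream. The GC content of the *Hes1* site was 60.0% and that of the *Hes5* sites 55.3% and 56.2%, all above the median of 50.1%.

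Among 26 genes of projection neurons 5 (19.2%) were nearest to a site, 9.90 per Mb. *Neurod2* (ENSMUSG00000038255.6), a bHLH factor of excitatory neurons, had a site of 5520 bp at chr11:98332143-98337662, 5.25 kb upstream, with both of its cores printed above. *Bcl11b*, a zinc-finger factor of subcerebral neurons, had a site of only 472 bp 2.92 kb upstream with a GC content of 61.4%. *Pou3f3* and *Pou3f1*, POU factors of cortical neurons, had sites 9.43 kb upstream and 17.3 kb downstream, and *Fezf2* was also on this list.

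Of the 26 Hedgehog pathway genes 2 (7.69%) were nearest to a site, beside 1.21% of all coding genes, with 6.45 sites per Mb against 1.17. The gene besides *Smo* was *Hhat*, the enzyme that attaches palmitate to Hedgehog ligands, with a site of 1180 bp 17.9 kb upstream and no exact core. A promoter site was present at 9 of the 26, 34.6% against 8.49% of all coding genes. That share was 41.4% on the Notch list and 37.1% on the cortical progenitor list. Of 30 factors of ventral and interneuron fates 1 (3.33%), *Prox1*, was nearest to a site, 19.3 kb upstream, and of 23 gliogenic genes 1 (4.35%), *Id1*. With 1 site each, these lists had 1.58 and 2.95 sites per Mb, where all genes had 1.17. *Olig3*, a bHLH factor of the dorsal neural tube and on none of the lists, was noticed after the values were seen. Its site of 4610 bp at chr10:19371628-19376237 lay 17.4 kb downstream and held 1 exact core, 2010 bp from the midpoint.

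Of 68 Wnt pathway genes 0 were nearest to a site, where the share of all coding genes was 1.21%, and 14 (20.6%) had a promoter site, where that share was 8.49%. The list had 1.02 Mb of the sequence in which such sites could lie, and at the density of 1.17 sites per Mb over all genes a count of 0 is near the background. The BMP and TGF-beta list had 2 of 58 genes (3.45%). These were *Nog*, a secreted BMP antagonist, 3.39 kb downstream, and *Skil*, a corepressor of Smad proteins, with a site of 4200 bp 2.90 kb upstream and a promoter site. Of 46 genes of Fgf and Egf receptor signalling 1 (2.17%), the receptor *Fgfr3*, was nearest to a site of 4621 bp 16.4 kb upstream, and had a promoter site too. The axon guidance list had 2 of 67 genes (2.99%), the semaphorin receptor *Plxna2* and *Robo3*, a Robo family receptor of commissural axons, with sites 5.96 and 5.06 kb upstream. Families of developmental transcription factors had 8 of 201 (3.98%), among them *Sox4*, *Sox21* and *Foxb2*, whose site of 4099 bp 2.14 kb upstream held an exact core. Per Mb there were 2.36 sites for the BMP and TGF-beta list, 1.59 for Fgf and Egf and 2.22 for axon guidance. The transcription factor families had 2.63 per Mb, and all genes 1.17.

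In all, 3 of the 27 sites nearest to listed genes held an exact core (11.1%), beside 15.9% of all 258 sites. They were those of *Smo*, *Neurod2* and *Foxb2*. Of the other 24, a form with 1 mismatch was present in 11 and absent from 13. The sequences below, in the same layout with the changed core in capitals, are the most central such form at 4 of these genes. They hold the changes C7A at *Id1*, C3A at *Pou3f1*, A2C at *Hes5* and A2T at *Hhat*, which lie 129, 62, 291 and 404 bp from the midpoint. The forms at *Robo3* (337 bp) and *Nrarp* (341 bp) were more central than that at *Hhat* and are not printed. The *Hes5* sequence is from its nearer site, and its other site held no such form. Over all sites A2T was in 2.33%, against 2.72% of flanks, while the other changes shown were more frequent in sites. With 1 mismatch allowed, a match was present in 67.8% of all 258 sites and in 40% of flanks. The matches below are shown as sequence and not as binding sites.
Id1 (chr2:152718108-152718148, minus strand): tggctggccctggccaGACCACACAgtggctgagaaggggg
Pou3f1 (chr4:124674062-124674102, minus strand): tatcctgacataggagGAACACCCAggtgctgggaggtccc
Hes5 (chr4:154953303-154953343, plus strand): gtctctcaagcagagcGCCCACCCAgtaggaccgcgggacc
Hhat (chr1:192788677-192788717, minus strand): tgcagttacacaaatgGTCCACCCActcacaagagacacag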

How the data were processed

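The Gli3 ChIP-seq experiment comprised 3 ChIP and 3 input libraries of wild-type cortex at embryonic day 15. The authors mapped paired reads (85 bases of each end) to mm10 with a repeat filter and deposited 1 list of positions, the peaks kept as optimal by the irreproducible discovery rate (IDR) method. The submitters' processing notes name Bowtie2, SAMtools and MACS2 without versions, and thresholds are not given in the sources used here. Thresholds and read depth set how many sites are listed and how wide they are. The 4 columns hold positions and names, so that replicates could not be compared. The list was used as deposited, and the total number of sites stated in the text of the study is not the number of its lines.

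Midpoints were classed with GENCODE M21, taking the starts of transcripts of the type protein-coding as coding TSSs. Sequence was read from GRCm38. A region counted once for a motif. Repeated sequence was measured by 32-base words starting 10 bases apart, as the percent with a further copy in the assembly. Classes were compared by Fisher's exact test, two-sided, and p-values were adjusted over 68 tests (Benjamini-Hochberg, threshold 0.05). The set and the gene lists were chosen with earlier results of these data known. The sites named were the 10 with the most central core, those with 2 or more cores, those whose nearest gene is on a list, the 3 widest and 3 narrowest, and those at the limits of the rule; 1 of the widest is not reported here. Steps were tested on simulated data. The work used scipy 1.17.1 and numpy 2.4.6 for statistics, samtools 1.23.1 and pysam 0.24.0 for sequence, matplotlib 3.10.9 for plots, and python 3.11.15.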

Additional observations from a re-analysis of the deposited data

How the results depend on the processing

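The number of sites moved most with the outer limit, to 124 at 10 kb and 538 at 50 kb, and was between 188 and 306 under the other readings of the rule, such as a distance of 1 or 5 kb from any TSS. Counting the starts of every transcript of a coding gene as coding, a reading added after the data were seen, gave 277 sites, among them all 258, and 64.3% upstream. The share with a GLI core was 67.8% with 1 mismatch, 22.9% with the 8-base form, 1.94% in the central 200 bp and 6.20% in the central 500 bp, and between 15.2% and 17.0% under other readings of the rule. The share with a promoter site at the nearest gene was 21.3% when any overlap with the 2 kb window counted. The percent of coding genes near a site was 1.61% when every gene within 20 kb counted and 0.598% at 10 kb.

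The odds ratio of the core against sites at 20 to 100 kb turned to 0.669 in the central 200 bp. Against sites inside coding genes it turned to 1.30 in the central 200 bp, 1.09 and 1.01 with the class boundary at 10 and 50 kb, and 1.15 with every transcript of a coding gene. None of these had an adjusted p-value below 0.05, before or after. With the boundary at 10 kb, which leaves fewer sites, the difference in GC content (odds ratio 0.601, exact test, adjusted p = 0.179) and that of the SP word against all other sites (0.511, exact test, adjusted p = 0.0655) no longer passed. With the boundary kept at 20 kb, the SP word against all other sites did not pass in the central 200 bp (0.787, exact test, adjusted p = 0.901). The SP word in the central 200 bp against sites inside coding genes had an odds ratio of 2.90 at 50 kb (exact test, adjusted p = 0.0632). At 10 kb none of the compared sites held it, no odds ratio could be given, and the adjusted p was 0.237. The cause was not tested. The boundaries used for these last tests were added after the data were seen. Without sites of over 50% repeated words, 4 tests passed as before.

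No paired analysis was possible because the replicates were joined into 1 list before deposit, and for the same reason none was left out. Depth per site is unknown, and a nearest gene is a neighbour, not a known target.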
